A study of Mus musculus with 8 samples.

Results

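Heat shock genes encode molecular chaperones, proteins that bind unfolded or partly folded clients and help them fold, move or be degraded. The HSP70 proteins work in a cycle of ATP binding and hydrolysis that J-domain proteins start and nucleotide exchange factors reset. Many of the inducible genes carry heat shock elements, inverted repeats of the bases GAA, which the transcription factor HSF1 binds after heat, misfolded protein or other stress. HSP90 also holds the glucocorticoid receptor in a form that can bind hormone, and the chaperonin of the mitochondrial matrix, with its co-chaperonin, folds proteins imported into that organelle.

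The 8 genes described here were chosen by name, as members of these cytosolic and mitochondrial systems, with earlier results of these data known. Their shares beside those of all probe sets are therefore descriptions, and cannot be separated from that choice. They are Hspa1b, Hspa8, Hsph1, Dnajb1, Hsp90aa1, Hspb1, Hspd1 and Hspe1, out of 12394 genes that had a probe set annotated to 1 symbol. All probe sets annotated to them were used, which gave 19 of the 22690 on the array, and all 19 passed the filter on low signals.

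The study profiled small intestine on Affymetrix arrays, taken from female C57/Black6 mice, aged 6 weeks, after 5 days of daily intraperitoneal injection. The control mice received the vehicle DMSO. Dexamethasone, a synthetic glucocorticoid, was given at 15 mg/kg, and DBZ, a gamma-secretase inhibitor that blocks the release of the active part of Notch receptors, at 10 micromol/kg. The combination group received both agents at those doses. The vehicle, dexamethasone and combination groups had 2 arrays each. Both columns labelled DBZ held the same values in 22684 of 22690 probe sets, and in all 19 heat shock probe sets. DBZ was therefore 1 array, assumed in the reported fit to vary like the other groups.

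Signals are the deposited intensities brought to a common trimmed mean of 250 per array, and are relative units that can be set side by side for 1 probe set but not between probe sets. The vehicle arrays had been deposited at a trimmed mean of 500.2 and the treated arrays at 250.1, so any difference in handling and the treatment cannot be told apart in a comparison against vehicle. The labels name no segment of the gut. The summed signal of 4 ileal markers was 633 to 740.3 with vehicle and 4021 to 17206 in the treated arrays, and that of 4 proximal markers was 9538 to 11658 with vehicle and 356 to 969 in the treated arrays, so position along the gut and treatment cannot be told apart either. The 9 epithelial markers summed to 50167 to 71621 in all arrays, which goes with the labelled tissue. Bright markers weigh most in such a sum, and 1 of the 9 passed as lower in each comparison against vehicle. Cdx2 read 1304 and 1352 with vehicle and 507 to 730 in the treated arrays. The 10 smooth muscle markers summed to 11557 and 15679 with vehicle and 21994 to 31674 in the treated arrays. The 8 fibroblast markers summed to 2198 and 4466 with vehicle and 7167 to 9700.1 in the treated arrays. The 6 T cell markers, 3 of them tested, summed to 1349 and 1632 with vehicle and 449 to 564 in the treated arrays. Most of that sum was Gzma and Gzmb, with Gzma at 921 and 1162 with vehicle and 285 to 374 in the treated arrays. The dim Cd3d and Cd8a overlapped, at 22.4 and 49.1 with DBZ beside 21.9 and 48.0 in their lower vehicle array. The neuron and glia markers summed to 121 to 219 in all arrays. No marker was at 0 in any array. In whole tissue, fewer cells of a type and less RNA per cell cannot be told apart.

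Differences are log2 differences of signal plus 12.32, with their standard errors (SE), and understate the change of dim probe sets. A probe set passed when its limma p, adjusted by the Benjamini-Hochberg method over 13638 tested probe sets, was under 0.05. Of the 19 heat shock probe sets, 6 passed for DBZ against vehicle (3 higher and 3 lower), where 8.34% of all tested probe sets passed, 3.74% as higher and 4.6% as lower. Dexamethasone against vehicle gave 5, all higher, beside 12% of all probe sets and 7.22% as higher. The combination against vehicle gave 4, all higher, beside 7.44% and 4.38%. On the deposited scale these splits of higher and lower were 1 and 14, 3 and 14, and 2 and 11. Of all 13863 probe sets tested on that scale, 68.6%, 75% and 79.7% passed, with 9389, 10209 and 10928 of them lower. On the scaled signals, the probe sets passing against vehicle came from 4 genes, Hspa1b and Hspb1 upward and Hspd1 and Hspe1 downward. Hspa8, Hsph1, Dnajb1 and Hsp90aa1 had no probe set that passed in any comparison on those signals. The median difference over the 19 probe sets was 0.07 for DBZ, 0.00 for dexamethasone and 0.38 for the combination, against medians of -0.05, 0.02 and -0.04 over all tested probe sets. These 3 comparisons share the same vehicle arrays and are given side by side. All 5 treated arrays lay above both vehicle arrays in 6 of the 19 probe sets, or 31.6%, beside 15.2% of all tested probe sets, and below both in 3, or 15.8%, beside 16.3%.

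**Figure D1:**
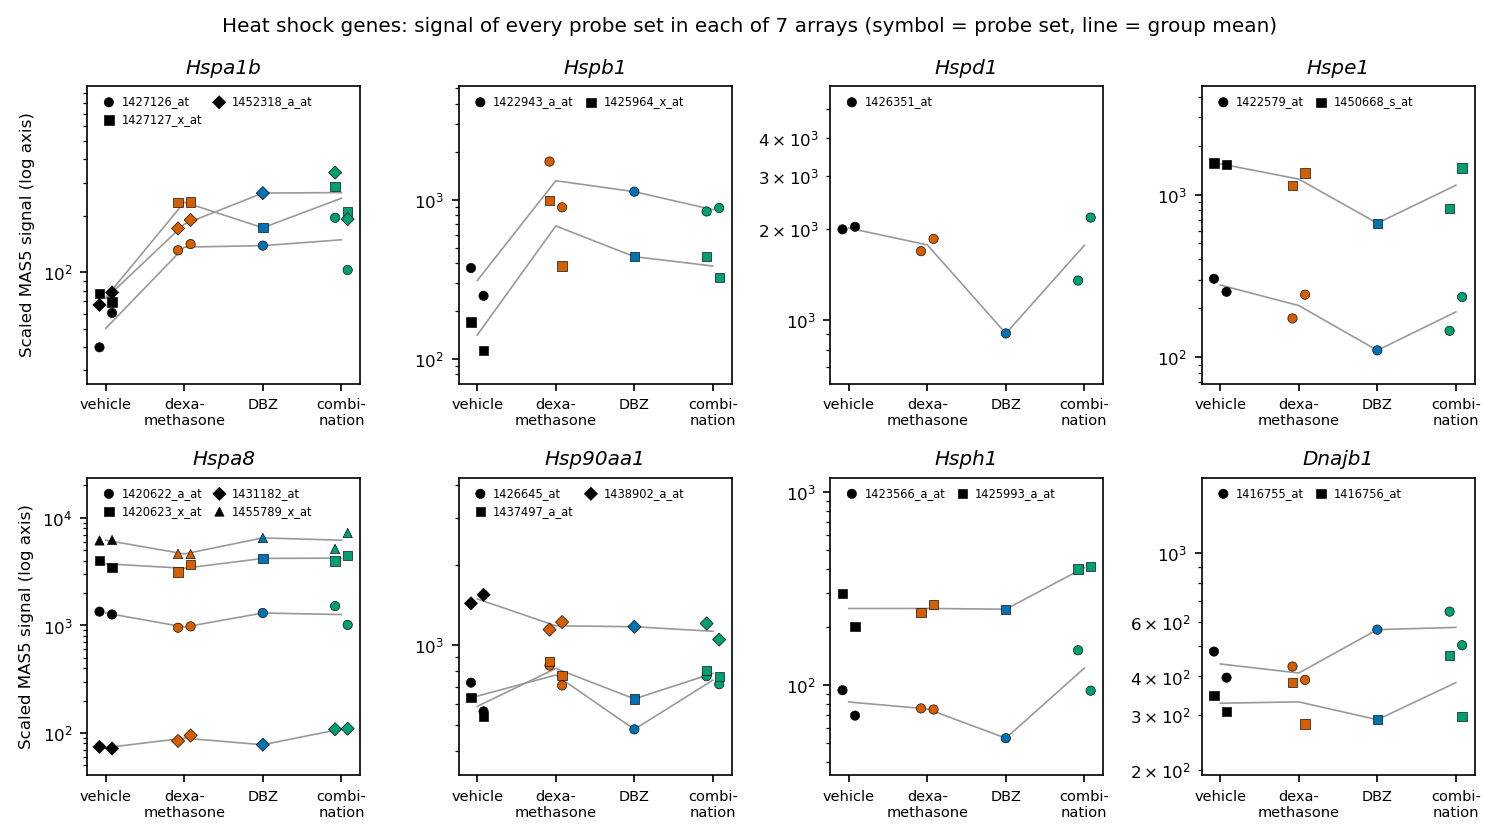
Scaled signal of the heat shock probe sets in each of the 7 arrays, on a log axis in relative units, with symbols for probe sets and lines for the means of the vehicle, dexamethasone, DBZ and combination groups. The 3 Hspa1b and 2 Hspb1 probe sets have all 5 treated arrays above both vehicle arrays, and the Hspd1 and Hspe1 probe sets have the DBZ array lowest.

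Hspa1b encodes a stress-inducible HSP70 of the cytosol, and its signal was higher in every treated array. The gene lies at chr17:34956429-34959238 on the reference build GRCm38.p6, beside the near-identical Hspa1a. Its window from 250 bases before to 50 bases after the transcription start (chr17:34959189-34959488, minus strand, RefSeq on GRCm38.p6) is shown because it holds a match to the paired heat shock unit, in capitals, 104 to 97 bases before the start. The letters searched were GAANNTTC and TTCNNGAA, which are palindromes and so read both strands, and matches that overlap were counted separately.
Hspa1b: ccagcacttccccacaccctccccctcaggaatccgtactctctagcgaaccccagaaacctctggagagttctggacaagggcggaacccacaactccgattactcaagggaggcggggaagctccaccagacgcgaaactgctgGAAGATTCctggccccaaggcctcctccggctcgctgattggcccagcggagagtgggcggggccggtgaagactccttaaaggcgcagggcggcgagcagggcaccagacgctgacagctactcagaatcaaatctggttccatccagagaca
Such a match occurred in 15.1% of all 32851 windows in the table. Of the 8 genes, 6 had a window there (Hspa8 and Hsp90aa1 did not), 5 of them with a match. The letters TATAAA, held by 13.6% of windows, and ACANNNTGT, held by 6.85%, both searched on both strands, were in no window of these genes. A match of letters describes a window and is not a binding site.

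The probe set 1427127_x_at had signals of 77.4 and 69.5 (vehicle), 236 and 237 (dexamethasone), 173 (DBZ) and 286 and 211 (combination). The probe set 1452318_a_at gave 67.1 and 78.1 (vehicle), 171 and 190.4 (dexamethasone), 265 (DBZ) and 341 and 192 (combination). The third, 1427126_at, gave 39.8 and 60.8, then 131 and 142, then 139, then 195 and 103, in the same order of groups. In each of them the lowest treated array stood clear of both vehicle arrays, by 1.69 to 2.23 times the higher vehicle signal, and the first combination array was the highest of all 7.

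With dexamethasone all 3 Hspa1b probe sets rose, by 1.54 ± 0.21 (SE, limma adjusted p = 0.00269) for 1427127_x_at, 1.27 ± 0.31 (adjusted p = 0.0279) for 1427126_at and 1.19 ± 0.27 (adjusted p = 0.0199) for 1452318_a_at. With the combination they rose by 1.59 ± 0.21 (adjusted p = 0.00362), 1.33 ± 0.31 (adjusted p = 0.0313) and 1.66 ± 0.27 (adjusted p = 0.00717), in the same order. With DBZ, 1452318_a_at rose by 1.71 ± 0.33 (adjusted p = 0.0156) and 1427127_x_at by 1.11 ± 0.26 (adjusted p = 0.0321), while 1427126_at differed by 1.29, with a 95% interval of 0.45 to 2.14 and an adjusted p of 0.0637. The combination gave no change that passed for Hspa1b against either agent alone. It exceeded dexamethasone by 0.05 (1427127_x_at), 0.06 (1427126_at) and 0.48 (1452318_a_at, interval -0.12 to 1.07). On the deposited scale, where the median of all probe sets lies near -0.92 (dexamethasone) to -0.997 (DBZ) against vehicle, 4 of the 8 Hspa1b calls were lost. Those lost were 1427127_x_at for DBZ (0.22), 1427126_at (0.41) and 1452318_a_at (0.29) for dexamethasone, and 1427126_at for the combination (0.47). Those that passed there too were 1452318_a_at for DBZ (0.81), 1427127_x_at for dexamethasone (0.64), and 1427127_x_at (0.69) and 1452318_a_at (0.77) for the combination. Leaving out arrays ended some of these calls: with 1 vehicle array left out, whichever it was, 1427127_x_at with DBZ (1.05 to 1.18), with any 1 vehicle or dexamethasone array left out, 1427126_at (1.025 to 1.51) and 1452318_a_at (1.095 to 1.28) with dexamethasone, and with any 1 vehicle array or the first combination array left out, 1427126_at with the combination (0.90 to 1.57). Without the first combination array 1452318_a_at with the combination also missed the threshold, at 1.27.

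Whether these probes read Hspa1b alone is not known here, because Hspa1a makes a nearly identical RNA and the probe sequences were not compared. The start windows of both genes share 296 of 300 bases. The 1 probe set annotated to Hspa1a alone was dim, at 28.4 and 22.0 (vehicle), 59.5 and 55.6 (dexamethasone), 45.9 (DBZ) and 73.0 and 85.1 (combination). It passed for the combination, with a difference of 1.29 ± 0.28 (limma adjusted p = 0.0253), while dexamethasone gave 0.90 (adjusted p = 0.0686) and DBZ 0.64 (adjusted p = 0.274).

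Hspa8, at chr9:40801276-40805202, encodes the constitutive HSP70 that serves folding and clathrin uncoating in unstressed cells. Its 4 probe sets did not pass in any of the 6 comparisons. The brightest, 1455789_x_at, had signals of 6170.5 and 6231 (vehicle), 4636 and 4607 (dexamethasone), 6516 (DBZ) and 5152 and 7248 (combination). Both dexamethasone arrays were the lowest of the 7, and the other groups overlapped. The dexamethasone difference was -0.42, with an interval of -0.86 to 0.02, and 1420622_a_at gave -0.43 (-0.88 to 0.02), while 1420623_x_at gave -0.14 and 1431182_at gave 0.25. The dim 1431182_at was the exception in order, with 74.5 and 71.8 under vehicle against 77.9 or more, up to 109.8, in every treated array.

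Hsph1, at chr5:149616843-149636498, encodes HSP110, an exchange factor that releases ADP from HSP70. Its window (chr5:149636287-149636586, minus strand) holds 3 matches to the paired unit, a density reached by 0.256% of all windows. It is shown because 2 of the 3 overlap past the start, at bases 36 to 48, to form a run of 3 units, which 0.603% of windows hold.
Hsph1: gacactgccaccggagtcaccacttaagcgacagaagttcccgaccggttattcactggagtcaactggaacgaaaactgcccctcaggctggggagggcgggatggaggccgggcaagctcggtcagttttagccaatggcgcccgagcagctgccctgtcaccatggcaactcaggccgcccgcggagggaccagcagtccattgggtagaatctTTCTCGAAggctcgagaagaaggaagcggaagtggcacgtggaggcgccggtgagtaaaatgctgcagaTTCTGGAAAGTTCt
The capitals mark the matches. The probe set 1425993_a_at had signals of 297 and 202 (vehicle), 239 and 261 (dexamethasone), 247 (DBZ) and 399.6 and 413 (combination). Both combination arrays were higher than all the others, which overlapped. The combination differed from vehicle by 0.70, with an interval of 0.23 to 1.17 (limma adjusted p = 0.0752), from dexamethasone by 0.68 (0.21 to 1.15, adjusted p = 0.384) and from DBZ by 0.69 (0.11 to 1.26, adjusted p = 0.323). The other Hsph1 probe set, 1423566_a_at, gave 94.2 and 69.6, then 75.9 and 74.9, then 53.2, then 152 and 93.7, in the order vehicle, dexamethasone, DBZ and combination. Here DBZ was lowest and only the first combination array stood above all the vehicle arrays.

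Dnajb1, at chr8:83608175-83612653, encodes HSP40, a J-domain partner that hands clients to HSP70. Its windows, at 2 starts, held no paired unit. The probe set 1416755_at read 481 and 396.5 (vehicle), 431 and 390.1 (dexamethasone), 567 (DBZ) and 648 and 505 (combination). The DBZ and both combination arrays were above both vehicle arrays, and the dexamethasone arrays overlapped with vehicle. Against dexamethasone the combination differed by 0.47, with an interval of 0.04 to 0.90 (adjusted p = 0.488). For 1416756_at the first combination array, at 468, was highest and the second, at 297, was below both vehicle arrays, at 348 and 308.

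Hsp90aa1, at chr12:110691036-110696395, encodes the inducible cytosolic HSP90. Its 3 probe sets differed in direction and none passed in any comparison. The probe set 1437497_a_at read 638 and 542 (vehicle), 868 and 769 (dexamethasone), 629 (DBZ) and 805 and 763 (combination). Dexamethasone and combination arrays stood above both vehicle arrays here, with a difference of 0.47 for dexamethasone (0.09 to 0.84, adjusted p = 0.107). The probe set 1438902_a_at instead read 1437 and 1548 (vehicle) and between 1049.95 and 1222 in the 5 treated ones, so that every treated array was lower. Its differences were -0.34 for DBZ, -0.33 for dexamethasone and -0.40 for the combination, the last with an interval of -0.76 to -0.04 and an adjusted p of 0.164. The third, 1426645_at, had its lowest signal, 483, in the DBZ array, beside 565 and 724 with vehicle.

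Hspb1 encodes HSP27, a small heat shock protein that works without ATP, holds unfolded proteins and binds actin filaments. The gene lies at chr5:135887919-135889563. Its window (chr5:135887669-135887968, plus strand) is shown because it has 2 separate matches to the paired unit, 117 to 110 and 97 to 90 bases before the start, where 1.96% of all windows have at least that many.
Hspb1: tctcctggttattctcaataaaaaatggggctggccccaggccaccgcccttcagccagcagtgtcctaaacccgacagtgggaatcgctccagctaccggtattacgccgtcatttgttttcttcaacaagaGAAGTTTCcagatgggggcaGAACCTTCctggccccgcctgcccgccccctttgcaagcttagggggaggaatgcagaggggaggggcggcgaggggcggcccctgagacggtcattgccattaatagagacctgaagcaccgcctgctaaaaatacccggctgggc
The probe set 1422943_a_at had signals of 373 and 249 (vehicle), 1736 and 896 (dexamethasone), 1124 (DBZ) and 844 and 888 (combination). The probe set 1425964_x_at gave 171 and 113, then 985 and 384.5, then 439, then 442 and 325, in the same order. Every treated array was above both vehicle arrays for each probe set, and the first dexamethasone array was the highest.

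With dexamethasone both Hspb1 probe sets rose, by 1.99 ± 0.29 (SE, limma adjusted p = 0.00328) and 2.06 ± 0.38 (adjusted p = 0.0083). Without the first dexamethasone array, the highest of the 7, these differences were 1.52 and 1.39 and still passed. With DBZ, 1422943_a_at rose by 1.84 ± 0.36 (adjusted p = 0.0172), and 1425964_x_at differed by 1.58, with an interval of 0.55 to 2.61 (adjusted p = 0.0639). With the combination, 1422943_a_at rose by 1.47 ± 0.29 (adjusted p = 0.0173), and 1425964_x_at differed by 1.37, with an interval of 0.53 to 2.22 (adjusted p = 0.0565). The mean signal of 1422943_a_at was 1316 ± 594 (SD, n = 2) for dexamethasone, 1124 for DBZ, 866 ± 31.1 (SD, n = 2) for the combination and 311 ± 87.1 (SD, n = 2) for vehicle. The first place of dexamethasone in that order rests on its first array, since the second, at 896, was below DBZ and near both combination arrays. The difference of the combination from dexamethasone (-0.52, interval -1.17 to 0.13) or from DBZ (-0.37, interval -1.17 to 0.43) did not pass. These intervals use 1 spread shared by all groups, not that of the combination arrays. Without the second vehicle array, the DBZ difference of 1422943_a_at was 1.56 (adjusted p = 0.0577) and the dexamethasone difference of 1425964_x_at was 1.78 (adjusted p = 0.0682). The combination difference of 1422943_a_at missed the threshold without that array or without either combination array, at 1.19, 1.503 and 1.43. On the deposited scale the dexamethasone differences of both Hspb1 probe sets, 1.02 and 1.11, passed, while those of 1422943_a_at for DBZ (0.87) and the combination (0.50) did not.

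The interaction term (combination minus dexamethasone minus DBZ plus vehicle) asks whether the combination differed from the sum of both agents' differences. For Hspb1 it was -2.36 ± 0.46 for 1422943_a_at (limma adjusted p = 0.0252), the only one of the 19 probe sets that passed, beside 4% of all tested probe sets. For 1425964_x_at it was -2.26, with an interval of -3.60 to -0.93 (adjusted p = 0.0671). Without the second vehicle array or either combination array the term of 1422943_a_at missed the threshold, at -2.08, -2.32 and -2.40. The 3 Hspa1b probe sets had interaction terms of -1.23, -1.06 and -1.23, and none passed, with adjusted p values of 0.190, 0.115 and 0.137. No heat shock probe set passed for the combination against either agent alone. The combination against DBZ gave 0 of 19, beside 0.33% of all tested probe sets passing. At an unadjusted limma p under 0.05 it gave 5 of 19, beside 1681 of all 13638 tested probe sets. The combination against dexamethasone gave 0 of 19, beside 0.0293% passing. At an unadjusted limma p under 0.05 it gave 2 of 19, beside 1277 of all 13638.

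The smooth muscle and fibroblast markers were higher in the same arrays. Relative to the vehicle mean, the summed smooth muscle markers stood at 2.33 and 1.72 (dexamethasone), 2.02 (DBZ) and 1.74 and 1.62 (combination). For Hspb1 1422943_a_at the ratios were 5.58 and 2.88, 3.61, and 2.71 and 2.85, and for Hspa1b 1427127_x_at they were 3.22 and 3.23, 2.35, and 3.90 and 2.87. Of the 10 smooth muscle markers, 4 (DBZ), 7 (dexamethasone) and 4 (combination) passed as higher, and of the 8 fibroblast markers 5, 8 and 5 did. Their part in the heat shock differences was not tested.

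**Figure D2:**
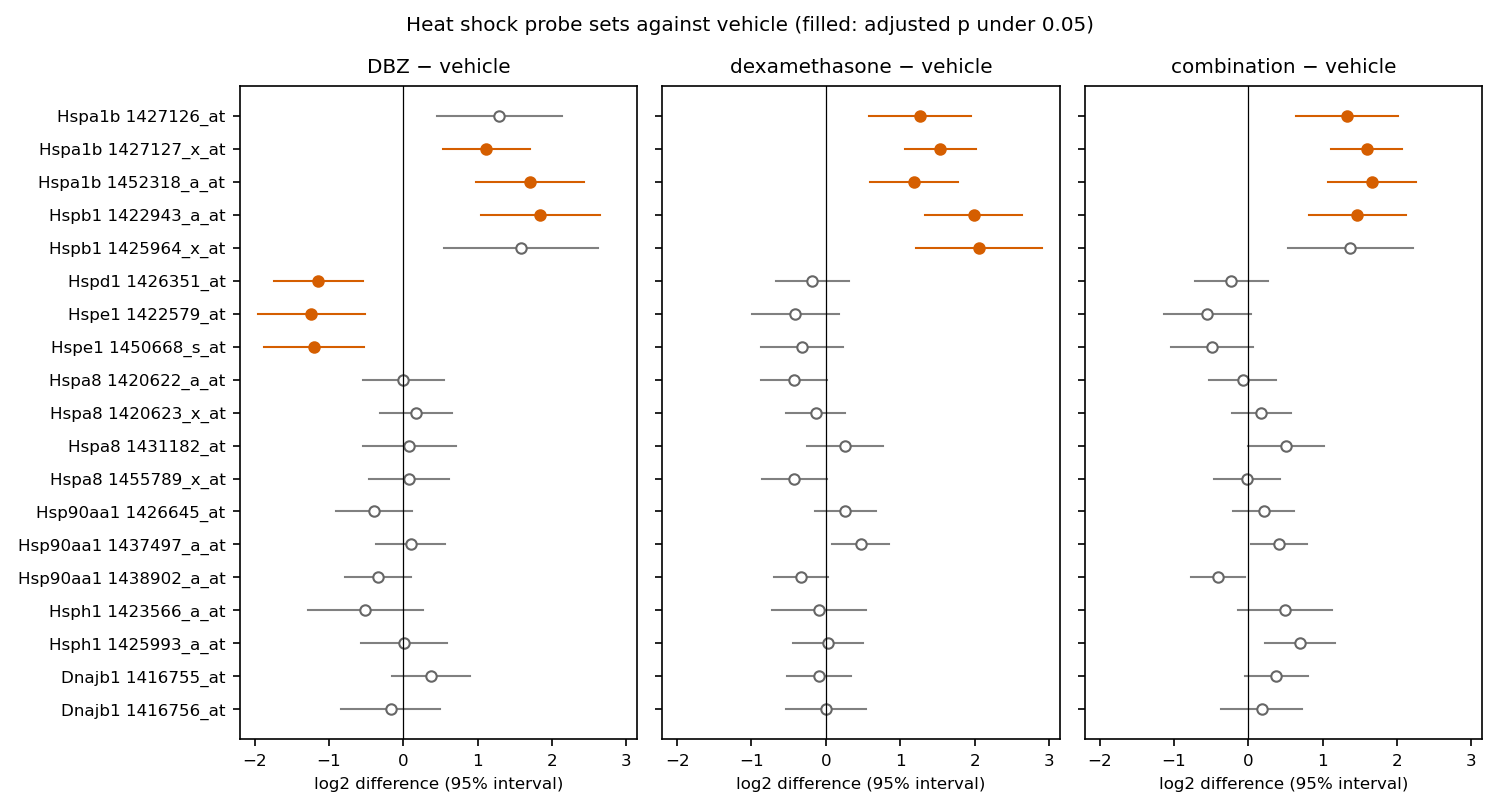
Log2 difference against vehicle for the 19 heat shock probe sets, with 95% intervals, for DBZ, dexamethasone and the combination. Hspa1b and Hspb1 sit to the right of 0 in all 3 comparisons, and Hspd1 and Hspe1 sit to the left with DBZ.

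**Figure D3:**
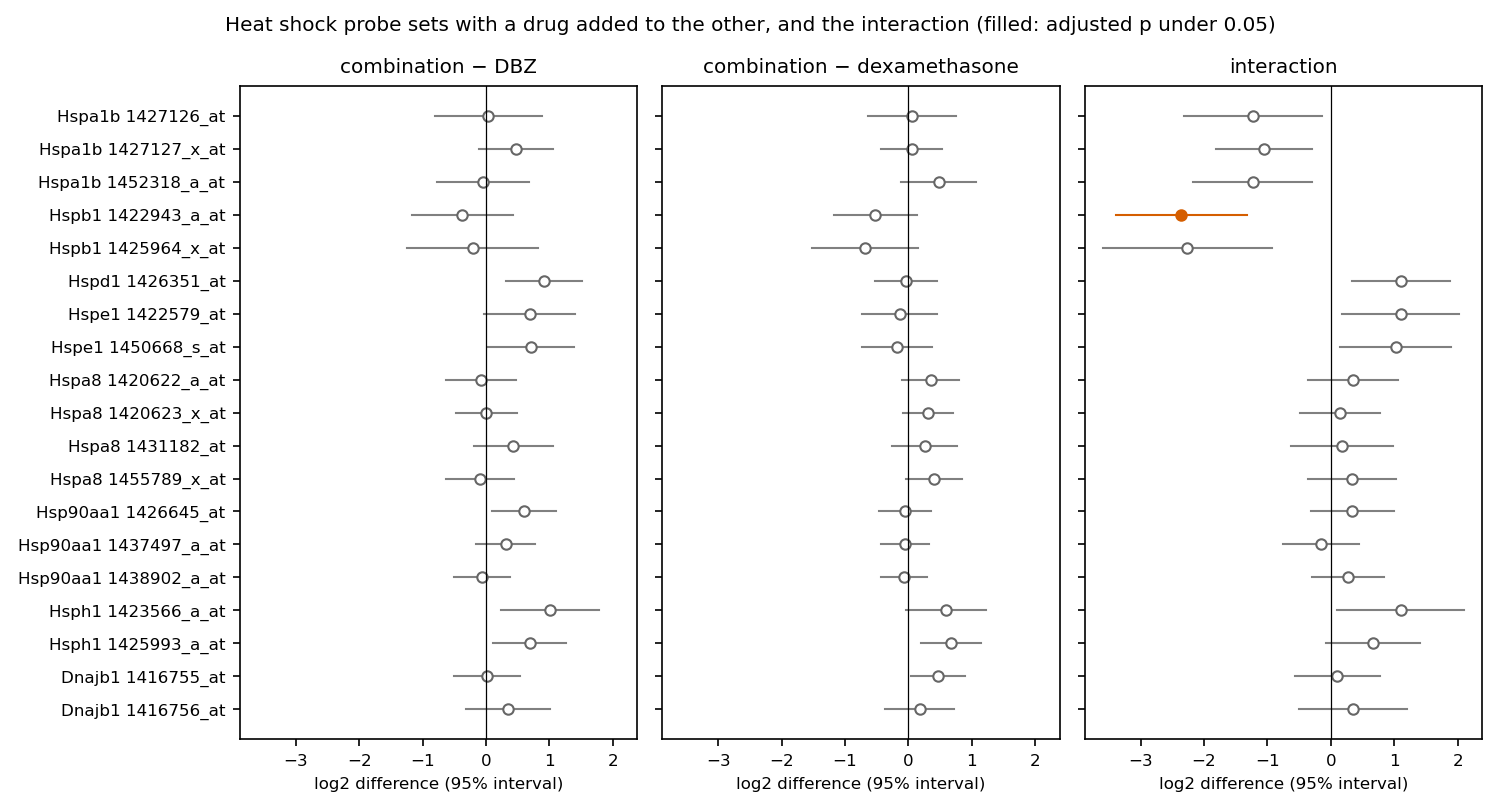
Log2 difference of the combination against DBZ and against dexamethasone, and the interaction term, for the 19 probe sets, with 95% intervals. No difference from either agent alone passed, and the single interaction term that passed was Hspb1 1422943_a_at at -2.36.

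Hspd1 and Hspe1 encode HSP60 and HSP10, the ring and the lid of the chaperonin of the mitochondrial matrix. They lie head to head on opposite strands of chromosome 1, Hspe1 at chr1:55088148-55091317 and Hspd1 at chr1:55077833-55088243, and the annotated spans overlap. Of the 2 listed Hspd1 starts, the outer one lies 95 bases inside Hspe1, and the other lies 216 bases from the Hspe1 start, on its upstream side. The Hspe1 window (chr1:55087898-55088197, plus strand) is shown because it covers the DNA that both share and holds 3 overlapping matches, 89 to 72 bases before the Hspe1 start, which lie inside the window of that second Hspd1 start as well.
Hspe1: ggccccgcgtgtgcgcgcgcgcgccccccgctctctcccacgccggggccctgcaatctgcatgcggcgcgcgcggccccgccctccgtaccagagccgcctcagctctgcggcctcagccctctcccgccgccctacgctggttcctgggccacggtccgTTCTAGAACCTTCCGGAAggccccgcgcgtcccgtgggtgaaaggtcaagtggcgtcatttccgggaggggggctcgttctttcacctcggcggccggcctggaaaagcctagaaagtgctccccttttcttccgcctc
In the window of the outer Hspd1 start no match was found.

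The Hspd1 probe set 1426351_at had signals of 1996 and 2036 (vehicle), 1691 and 1857 (dexamethasone), 905 (DBZ) and 1353 and 2184 (combination). For Hspe1, 1450668_s_at gave 1565 and 1524 (vehicle), 1134 and 1353 (dexamethasone), 666 (DBZ) and 821 and 1459 (combination). The dimmer 1422579_at gave 303 and 252, then 173 and 242, then 110.1, then 145 and 234. In each the DBZ array was the lowest of the 7 and the first combination array the second lowest, while the second combination array was nearer to vehicle. The DBZ array was the lowest of the 7 in 5 of the 19 heat shock probe sets, or 26.3%, beside 21.8% of all tested probe sets.

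With DBZ, Hspd1 fell by 1.14 ± 0.27 on the log2 scale (limma adjusted p = 0.032) and Hspe1 by 1.24 ± 0.32 (adjusted p = 0.0441) and 1.20 ± 0.30 (adjusted p = 0.0407). With dexamethasone the differences were -0.18, -0.41 and -0.31, and with the combination -0.23, -0.55 and -0.49, and none of these passed. Against DBZ the combination stood 0.92 higher for Hspd1, with an interval of 0.32 to 1.52 (adjusted p = 0.212), and 0.69 and 0.71 higher for Hspe1. These rest on the 1 DBZ array. Its ratios of 3′ to 5′ control signal were above those of the other arrays, at 1.80 for Gapdh (others 0.905 to 1.22) and 2.17 for Actb (others 1.22 to 1.79). With 1 vehicle array left out, whichever it was, the 3 DBZ differences missed the threshold, at -1.16 to -1.13 for Hspd1 and -1.37 to -1.11 and -1.22 to -1.18 for Hspe1. Proliferating crypt cell markers moved in the same array, where 11 markers summed to 2443 with DBZ, 4039 and 4770.0 with vehicle, and 2741 and 3939 with the combination, 4 of them passing as lower with DBZ. Their part in the result was not tested.

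**Figure D4:**
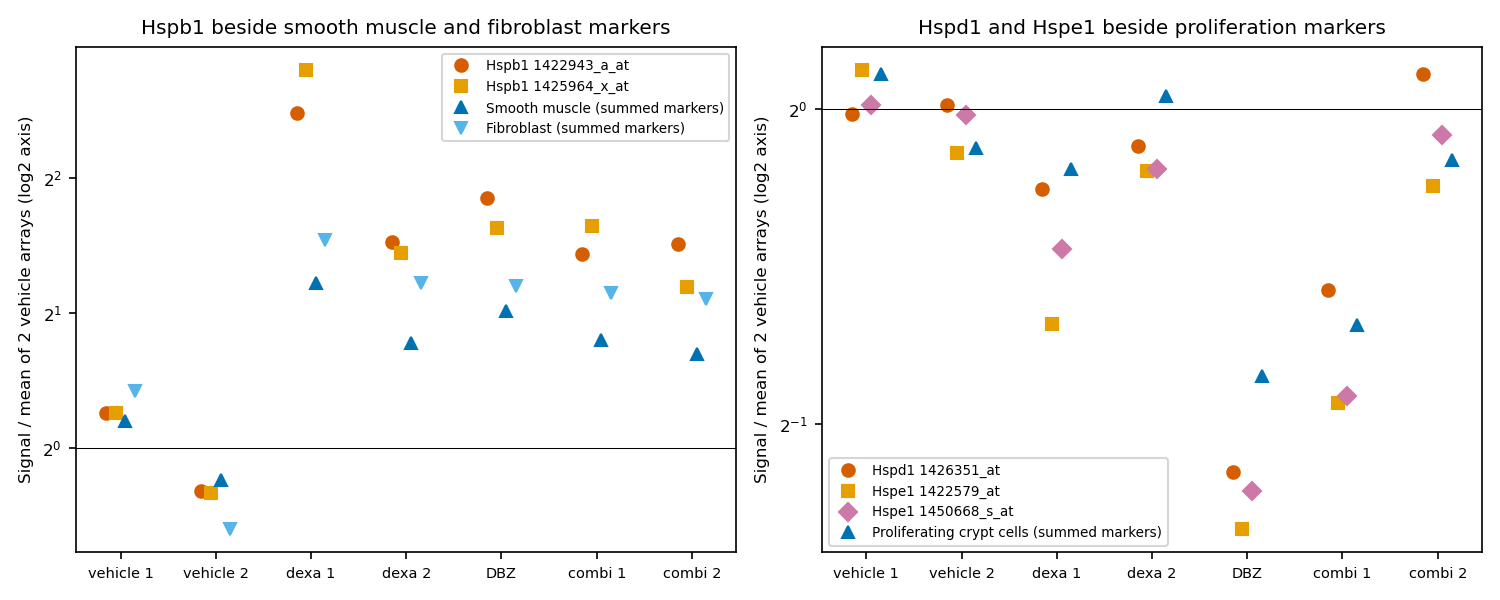
Signals relative to the vehicle mean, on a log axis, of Hspb1 beside the summed smooth muscle and fibroblast markers (left) and of Hspd1 and Hspe1 beside the summed proliferation markers (right), for each of the 7 arrays. Hspb1 and both marker sums lie above 1 in every treated array, and Hspd1, Hspe1 and the proliferation sum are lowest with DBZ.

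**Figure D5:**
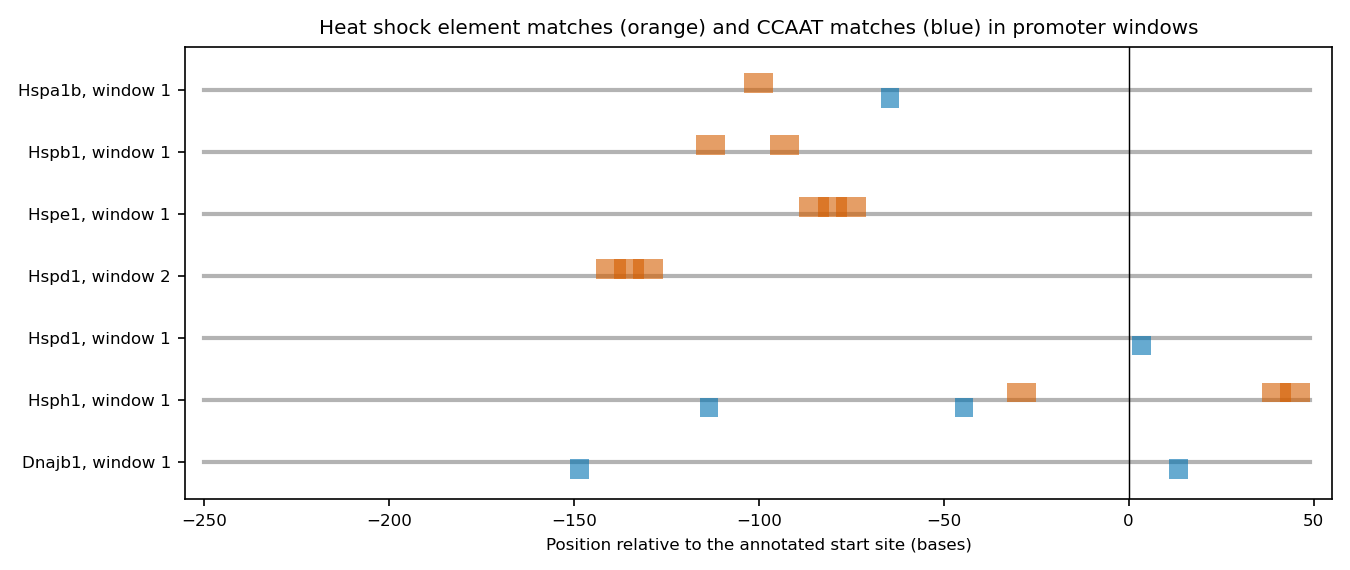
Matches to the paired heat shock unit (orange) and to CCAAT on either strand (blue, held by 37.4% of all windows) in 7 start windows, by distance in bases from the annotated start. Hspa1b, Hspb1, Hspe1, Hsph1 and Hspd1 window 2 carry heat shock matches, and Dnajb1 and Hspd1 window 1 carry none.

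Related chaperone genes were read against the share of all tested probe sets that passed, which was 8.34% (DBZ), 12% (dexamethasone) and 7.44% (combination). Of 26 measured HSP70 family, J-domain and exchange factor genes, 2 rose with DBZ, 1 rose and 2 fell under dexamethasone, and 1 rose under the combination. Hspa2, a testis-enriched HSP70, rose by 1.34 ± 0.27 with DBZ (adjusted p = 0.0188), and Dnajc5, a J-domain protein of secretory vesicles, rose by 0.82 ± 0.21 with DBZ (adjusted p = 0.0431) and 0.71 ± 0.17 with dexamethasone (adjusted p = 0.0272). Among 14 HSP90 family genes and co-chaperones, 1 fell with DBZ, 2 rose and 3 fell with dexamethasone, and 2 fell with the combination. Fkbp5, a co-chaperone of the glucocorticoid receptor that is usually induced by glucocorticoids, fell by 1.78 ± 0.34 with dexamethasone (adjusted p = 0.00982) and 2.05 ± 0.34 with the combination (adjusted p = 0.00819). Its signals were 952 and 1316 (vehicle), 449 and 224 (dexamethasone), 1072 (DBZ) and 346 and 197 (combination). Ppp5c, a phosphatase that docks on HSP90, fell by 1.14 (DBZ), 1.03 (dexamethasone) and 0.92 (combination).

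The 5 measured small heat shock genes other than Hspb1 gave no calls. Cryab, alpha B-crystallin, differed by 1.21 with dexamethasone (adjusted p = 0.105) and Hspb8 by 1.33 with DBZ (adjusted p = 0.079). Of 16 mitochondrial chaperones and proteases, Hspa9, the mitochondrial HSP70, fell by 0.95 with DBZ (adjusted p = 0.0342) and Hscb by 1.07 with the combination (adjusted p = 0.0335). None of 13 subunits of the TRiC chaperonin and prefoldin passed, and none of 6 heat shock factors and regulators did.

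The genes most like a mean profile over 7 arrays, chosen by Pearson's r with no test, were Mmp13 (0.975), Ddit3 (0.970), Ift20 (0.969), Gtf2f1 (0.956) and Tsc22d1 (0.955) for Hspa1b, Hsph1 and Dnajb1 together. For Hspd1 and Hspe1 they were Timm8a1 (0.995), Rbmxl1 (0.980), Tmem147 (0.978), Pcna (0.976) and Wdr61 (0.975). Pcna is also on the list of proliferation markers. The first profile averages genes that differed: Hspa1b rose with dexamethasone, while no Hsph1 or Dnajb1 probe set passed. Its list therefore does not describe Hspa1b alone. Ddit3 read 211 and 156 (vehicle) and 200 and 212 (dexamethasone). Mmp13 was dim, at 36.8 and 9.34 (vehicle) and 26.8 and 24.3 (dexamethasone), below the filter level of 38.82. It read 47.0 (DBZ) and 120 and 57.6 (combination). The r values are descriptions over points that share the scaling and the array differences.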

How the data were processed

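Small intestine RNA was hybridised to Affymetrix mouse arrays. The authors deposited 1 intensity per probe set, made with MAS5 per the submitters' processing notes; which MAS5 version is not given here, and the table holds no detection calls. It covers 22690 probe sets and 8 samples. Its 2 DBZ columns differed in 6 probe sets, where 1 copy was 0, and were used as 1 array, so the planned fit with 2 DBZ arrays became an alternative.

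Arrays were brought to the same trimmed mean, 250, with 2% cut from each end. Tests used log2 of signal plus a pseudocount of 12.32 (the 20th percentile over all arrays). A probe set was tested if its mean over the arrays reached 38.82 (the 40th percentile) and it was not 1 of 64 controls, which kept 13638. A model with 4 group means was fitted to the 7 arrays with limma 3.58.1 in R 4.3.3, with 2-sided moderated tests, a variance trend on intensity and adjustment by Benjamini-Hochberg at 0.05. Residual and prior degrees of freedom came to 3 and 6.83. The code was tested on simulated data. The labels describe replicates by number alone, so p-values measure the spread between these arrays, whose small number limits precision.

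Of all probe sets 20393 had 1 symbol, 691 several and 1606 none, by the platform annotation. All probe sets of the 8 genes were described in all 6 comparisons. From each of 7 lists of related genes up to 4 genes were named, those with the smallest p over the comparisons, with 1 probe set a gene. There were 8 lists of cell type and position markers. The members and lists were chosen with earlier results of these data known. Probe sets ending in _x_at or _s_at can bind related RNAs. The 17 other settings, 6 of them leaving out 1 array, and 1 chosen after seeing the data (without the DBZ array) are given at the end. Start windows came from RefSeq on GRCm38.p6.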

Additional observations from a re-analysis of the deposited data

Results flagged for a closer look

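The interaction term of Hspb1 1422943_a_at was -2.36 ± 0.46 (SE, limma adjusted p = 0.0252), and is flagged because the term itself passed. It was 1 of 19 heat shock probe sets, or 5.26%, near the 4% of all tested probe sets that passed. For this probe set the DBZ difference from vehicle was unlike the combination's difference from dexamethasone. The term holds the vehicle arrays, whose scale and gut position markers set them apart, and the 1 DBZ array, so treatment and those differences cannot be told apart in it. Without dexamethasone the DBZ array was 1.84 above vehicle, and on top of dexamethasone the combination was 0.52 below dexamethasone alone (-0.52). The second Hspb1 probe set gave -2.26 (adjusted p = 0.0671). Over the alternatives the adjusted p of the first ranged from 0.00488 to 0.109.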

How the results depend on the processing

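Of 1877 values recomputed for single heat shock probe sets, 1709 kept their direction and side of the threshold, 52 lost it, 50 gained it, 48 changed sign with neither value passing and 18 changed sign with a call on 1 side. All 18 came from the values as deposited, which moved the all-probe median to -0.997, -0.92 and -0.99 for DBZ, dexamethasone and the combination and to 0.94 for the interaction. They were, for DBZ, Hsph1 1425993_a_at (-0.95), Dnajb1 1416755_at (-0.61), Hspa8 (-0.99, -0.83, -0.80 and -0.93) and Hsp90aa1 1437497_a_at (-0.89). For dexamethasone they were Hsph1 1425993_a_at (-0.94), Dnajb1 1416756_at (-0.97), Hspa8 1431182_at (-0.63) and Hsp90aa1 (-0.72 and -0.52). For the combination they were Dnajb1 (-0.60 and -0.79), Hspa8 1420623_x_at (-0.82) and Hsp90aa1 (-0.78 and -0.58), and for the interaction Hsp90aa1 1437497_a_at (0.83). The counts of heat shock probe sets that passed, in the order DBZ, dexamethasone, combination and interaction, were 6, 5, 4 and 1 in the reported fit and 15, 17, 13 and 15 as deposited. The DBZ and interaction counts were 2 and 0 with no filter, 2 and 0 with no intensity trend and 2 and 2 with the replicate block. Without probe sets ending in _x_at or _s_at the dexamethasone count was 3, where 12.6% of all tested probe sets passed. With both DBZ columns as separate arrays the interaction count was 5, where 15.5% of all tested probe sets passed. In that setting the combination against DBZ gave 2, where 7.91% of all passed. Leaving out 1 array kept the sign of every difference that passed in the reported fit. These ran from 1.05 to 2.12 and from -1.37 to -1.11 for DBZ, and from 1.03 to 2.72 for dexamethasone. For the combination they were 0.90 to 2.06, and for the interaction -2.83 to -1.89. Several of these calls were lost, as given for each gene above. Over all tested probe sets, 1137, 1642, 1015 and 545 passed in the same order; these were 9515, 10404, 11055 and 6566 as deposited, 538, 1082, 623 and 233 with no filter, and 4073, 2620, 1988 and 2112 with both DBZ columns. With no trend DBZ, the combination and the interaction gave 678, 653 and 206, and with the block DBZ and the interaction gave 695 and 358. Without the DBZ array, dexamethasone gave 5 and the combination 4, where 11.9% and 7.44% of all tested probe sets passed. The causes of these shifts were not tested, apart from the fewer probe sets or arrays that a setting leaves. The labels do not say what a shared replicate number stands for. Replicate deviations correlated at 0.05 (vehicle and dexamethasone), -0.12 (vehicle and combination) and 0.12 (dexamethasone and combination). With 2 arrays a group, these values cannot decide whether arrays with the same number shared their handling. Precision is limited by the 7 arrays and the single DBZ array.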

Other observations

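The immediate early genes, transcription factors and regulators that answer quickly to growth signals and stress, were measured beside the heat shock genes. Of 21 tested, 1 passed as higher for DBZ, 2 for dexamethasone and 4 for the combination, and none as lower. Of all tested probe sets 3.74%, 7.22% and 4.38% passed as higher. Differences above 0 were found for 13, 12 and 10 of the 21, in the same order. The list medians were 0.26, 0.11 and -0.03, beside -0.05, 0.02 and -0.04 over all tested probe sets. Egr1 signals were 166 and 214 (vehicle), 479.9 and 978 (dexamethasone), 184 (DBZ) and 386 and 513 (combination), and Egr1 rose by 1.80 ± 0.31 with dexamethasone (limma adjusted p = 0.00611) and 1.19 ± 0.31 with the combination (adjusted p = 0.0456). Atf3, a stress-responsive transcription factor, rose by 0.89 ± 0.24 (adjusted p = 0.0437) and 1.16 ± 0.24 (adjusted p = 0.0219). Btg2, which restrains proliferation, rose by 1.16 ± 0.23 with DBZ (adjusted p = 0.0176) and 0.86 ± 0.19 with the combination (adjusted p = 0.023). Jun rose by 0.97 ± 0.23 with the combination (adjusted p = 0.032), where both arrays, at 1320.3 and 1074, were above all the others.

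The combination arrays differed between themselves, which was not tested. The first was the higher for Hspa1b (341 and 192 for 1452318_a_at) and Dnajb1 (648 and 505 for 1416755_at). It was the lower for Hspd1 (1353 and 2184) and Hspe1 (821 and 1459 for 1450668_s_at). Probe sets of Hspa8 went both ways (5152 and 7248 for 1455789_x_at, 1514 and 1012 for 1420622_a_at). So did those of Hsph1 (399.6 and 413 for 1425993_a_at, 152 and 93.7 for 1423566_a_at). Hspb1 went both ways too (844 and 888 for 1422943_a_at, 442 and 325 for 1425964_x_at). The summed proliferation markers (2741 and 3939) and epithelial markers (51949.6 and 71621) were also lower in the first array, and their part in these values was not tested.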
